A study of Homo sapiens with 9 samples.

Results

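Distal chromosome 3q, the stretch of the long arm of chromosome 3 from 165 Mb to the chromosome end, was examined in the ATAC-seq peak lists of HEK293T cells lacking IGF2BP1, IGF2BP2 or IGF2BP3 and of their control. Its members were chosen by position: every deposited peak on chromosome 3 with a midpoint at or above 165 Mb, divided at 185.7 Mb, a position inside the gene IGF2BP2, into a lower part of 20.7 Mb and an upper part of 12.5 Mb that ends with the last peak at 198.2 Mb. The 4 lists together hold 1859 such peaks of 194414 in all, which merge into 744 separate regions of 71597. The lower part holds 478 of these regions and the upper part 266. The stretch and the dividing point were picked from an earlier look at these same lists, in which the IGF2BP2 knockout list had few peaks above 185.7 Mb relative to the control list. Peak numbers in that pair of lists therefore define the region, and they are given here as a description with no test.

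ATAC-seq maps open chromatin with a transposase that inserts sequencing adapters where DNA is accessible, and a peak is an interval in which such insertions pile up. HEK293T is an established line of human embryonic kidney origin. The labels give 9 libraries in 4 groups: control cells given a guide RNA with no target (2 libraries, batches 2 and 3), an IGF2BP1 knockout (3 libraries, batches 1, 2 and 3), an IGF2BP2 knockout (2 libraries, batches 2 and 3) and an IGF2BP3 knockout (2 libraries, batches 2 and 3). Each knockout was 1 clone grown from a sorted GFP-positive cell after transient transfection of a plasmid with 3 guide RNAs, no group received any other treatment, and the control was prepared alongside, although the labels do not say whether it is a clone. A difference between clones and a difference between genotypes therefore cannot be told apart.

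Each group is represented by 1 list of intervals without heights, scores or read numbers, so no spread between replicates could be measured and read depth is unknown. The lists hold 39194 peaks in the control, 50917 without IGF2BP1, 60262 without IGF2BP2 and 44041 without IGF2BP3. Whether a longer list holds more peaks near its own calling threshold was not tested. Intervals printed with percentages are 95% Wilson intervals, which cover counting error over peaks or regions and nothing else. Of 7 genes fixed as markers of HEK293T, 5 (VIM, LHX1, NEFM, NEFL and CDH2) had a peak within 1 kb of an end of the gene in every list, and PAX2 and PAX8 had none. Of 8 markers of leukocytes, liver, red cells, endothelium and islets, CD3E had such a peak in the IGF2BP1 knockout list and no other marker had one in any list.

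Distal 3q carries a dense set of genes with known parts in growth and cell identity. SOX2 and TP63 encode transcription factors of stem and epithelial cells, MECOM and BCL6 encode transcriptional regulators of blood cells, PIK3CA encodes the catalytic subunit of a lipid kinase that relays growth signals, TERC is the RNA template of telomerase, and TFRC is the receptor through which cells take up transferrin-bound iron. IGF2BP2 belongs to a family of proteins that bind messenger RNAs and affect their stability and translation. Accessible chromatin at a promoter usually accompanies an active or poised gene, whereas accessible sites away from promoters include enhancers and insulators.

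Promoters of 6 genes of the region, with and without a peak difference, are printed here from RefSeq (GRCh38.p14). Each runs 5′ to 3′ on the strand of its gene from 250 bases before to 50 bases after the start site. EIF4A2 (chr3:186783327-186783626, plus strand), LSG1 (chr3:194672142-194672441, minus strand) and BCL6 (chr3:187745419-187745718, minus strand) are shown because a control peak covers each window and no peak of the IGF2BP2 knockout list does. IGF2BP2 (chr3:185824993-185825292, minus strand), TFRC (chr3:196082041-196082340, minus strand) and SOX2 (chr3:181711675-181711974, plus strand) are shown because peaks of all 4 lists overlap them. Capitals mark matches, on either strand and with overlapping matches counted, to GGGCGG (the GC box), CCAAT (a box bound by NF-Y), TATAAA (the TATA box), CCGGAAGT (an ETS factor motif) and TGANTCA (the AP-1 motif); the palindromic NRF1 motif was searched as well and is in none of these 6 windows.
EIF4A2: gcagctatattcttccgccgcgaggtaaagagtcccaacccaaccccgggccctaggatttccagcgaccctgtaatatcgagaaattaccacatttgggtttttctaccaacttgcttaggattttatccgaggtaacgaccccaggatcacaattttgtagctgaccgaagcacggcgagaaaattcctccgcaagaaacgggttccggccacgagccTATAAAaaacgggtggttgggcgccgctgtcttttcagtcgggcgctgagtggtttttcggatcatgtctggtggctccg
LSG1: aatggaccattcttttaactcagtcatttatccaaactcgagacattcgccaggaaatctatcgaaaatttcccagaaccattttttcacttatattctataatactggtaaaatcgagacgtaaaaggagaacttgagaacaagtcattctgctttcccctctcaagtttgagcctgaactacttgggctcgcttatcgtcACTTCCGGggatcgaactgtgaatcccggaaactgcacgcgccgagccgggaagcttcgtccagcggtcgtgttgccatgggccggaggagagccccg
BCL6: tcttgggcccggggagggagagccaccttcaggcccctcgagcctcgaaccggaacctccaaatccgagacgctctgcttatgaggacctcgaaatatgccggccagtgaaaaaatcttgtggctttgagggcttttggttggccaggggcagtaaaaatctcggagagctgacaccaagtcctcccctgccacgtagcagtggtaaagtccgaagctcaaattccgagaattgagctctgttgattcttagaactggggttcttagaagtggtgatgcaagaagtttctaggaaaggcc
IGF2BP2: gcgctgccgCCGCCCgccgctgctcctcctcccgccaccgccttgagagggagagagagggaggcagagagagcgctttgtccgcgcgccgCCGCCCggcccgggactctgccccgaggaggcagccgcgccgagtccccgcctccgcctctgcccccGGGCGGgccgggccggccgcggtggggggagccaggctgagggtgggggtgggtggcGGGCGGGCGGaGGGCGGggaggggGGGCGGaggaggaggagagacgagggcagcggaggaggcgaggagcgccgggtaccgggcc
TFRC: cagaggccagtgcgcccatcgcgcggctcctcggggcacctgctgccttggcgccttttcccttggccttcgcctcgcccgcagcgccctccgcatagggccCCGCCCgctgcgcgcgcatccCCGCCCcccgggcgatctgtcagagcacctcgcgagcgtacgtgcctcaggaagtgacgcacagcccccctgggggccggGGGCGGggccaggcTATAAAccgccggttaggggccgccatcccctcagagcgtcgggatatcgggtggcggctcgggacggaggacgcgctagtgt
SOX2: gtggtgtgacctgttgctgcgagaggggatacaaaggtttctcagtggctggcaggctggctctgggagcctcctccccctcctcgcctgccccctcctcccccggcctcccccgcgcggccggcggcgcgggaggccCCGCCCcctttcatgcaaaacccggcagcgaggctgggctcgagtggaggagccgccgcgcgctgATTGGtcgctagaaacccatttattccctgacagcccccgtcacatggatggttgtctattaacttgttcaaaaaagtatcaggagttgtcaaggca

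The windows differ in base composition. The GC content was 52.3% for EIF4A2, 47.7% for LSG1 and 53% for BCL6, and 80.7% for IGF2BP2, 73.3% for TFRC and 63.3% for SOX2. GGGCGG occurred 7 times in the IGF2BP2 window, 3 times in that of TFRC, 1 time in that of SOX2 and not at all in the other windows. EIF4A2 and TFRC have a TATAAA, LSG1 has a CCGGAAGT match and SOX2 a CCAAT match.

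The lower part of distal 3q held more peaks in the IGF2BP2 knockout list than in any other list, and the upper part held fewer. Below the split there were 195 peaks in the control, 342 without IGF2BP1, 391 without IGF2BP2 and 228 without IGF2BP3. Above it there were 155, 239, 131 and 178 in the same order. The IGF2BP2 knockout list is 1.54 times as long as the control list, and it held 2.01 times as many peaks in the lower part but 0.845 times as many in the upper part.

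The lower part took 55.7% (interval 50.5 to 60.8) of the distal 3q peaks in the control, 58.9% (54.8 to 62.8) without IGF2BP1, 74.9% (71.0 to 78.4) without IGF2BP2 and 56.2% (51.3 to 60.9) without IGF2BP3. The values of the control and the IGF2BP2 knockout are those that chose the split, so their intervals give the counting error and are not set against each other. Per megabase, the lower part held 9.42 peaks in the control, 16.5 without IGF2BP1, 18.9 without IGF2BP2 and 11.0 without IGF2BP3. The upper part held 12.4, 19.2, 10.5 and 14.3 per megabase. The density fell from the lower to the upper part in the IGF2BP2 knockout list and rose in the other lists.

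Relative to the length of each list, the upper part took 0.55 times the control's share of peaks in the IGF2BP2 knockout, 1.19 times without IGF2BP1 and 1.02 times without IGF2BP3. The corresponding ratios for the lower part were 1.30, 1.35 and 1.04, and for the remainder of chromosome 3 they were 1.09, 1.14 and 1.03. The ratio of upper to lower peaks, on the log2 scale against the control, was -1.25 in the IGF2BP2 knockout, -0.19 without IGF2BP1 and -0.03 without IGF2BP3. These 3 comparisons share the control list. With another knockout list in the place of the control, the IGF2BP2 knockout gave -1.06 against the IGF2BP1 knockout and -1.22 against the IGF2BP3 knockout.

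**Figure D1:**
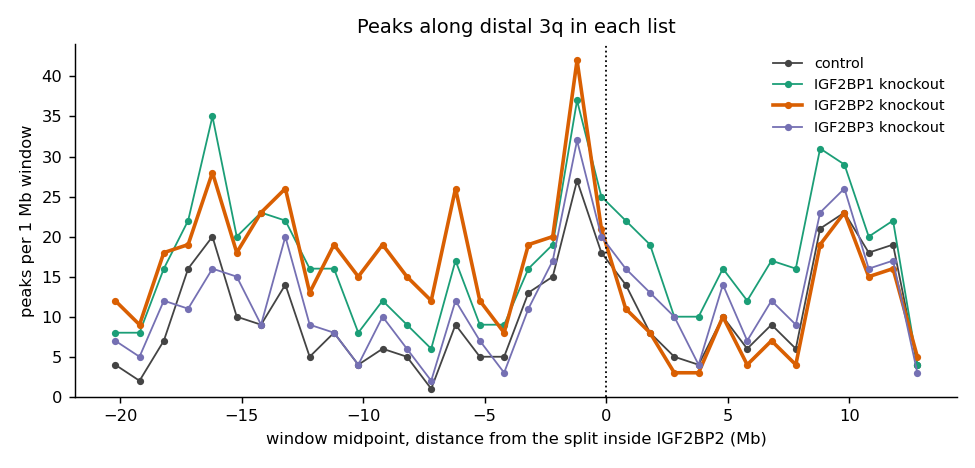
Peaks per 1 Mb window along distal 3q (y axis) against the distance of the window's midpoint from the split inside IGF2BP2 in Mb (x axis), with 1 line for each of the 4 lists. Left of the dotted line the IGF2BP2 knockout lies above the control in all 20 windows, and right of it the IGF2BP2 knockout is the lowest list, ties included, in 12 of 13 windows.

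In windows of 1 Mb, the IGF2BP2 knockout list, the longest of the 4, held more peaks than the control in 20 of 20 windows of the lower part, as it did in 92.6% of the 2897 windows of the genome with a peak in any list. It was alone the highest list in 14 of those 20, a share near the 68.8% of all windows. The upper part was picked because this list had few peaks there relative to the control. The IGF2BP2 knockout was the lowest list there in 12 of 13 windows, ties included (4.35% of all windows), and alone the lowest in 9 (1.14%). The exception was the last window, from 198 to 199 Mb, with 5 peaks in the IGF2BP2 knockout against 4, 4 and 3 in the control, the IGF2BP1 knockout and the IGF2BP3 knockout.

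Relative to list length, the log2 ratio of the IGF2BP2 knockout's share of peaks to the control's ranged from -1.27 to -0.33 over the upper windows, all 13 below 0. Over the lower windows it ranged from -0.38 to 2.44, with 16 above 0 and 4 below. Of all windows of the genome, 50.6% were below 0. The IGF2BP1 knockout was alone the highest list in 11 of the 13 upper windows (13.2% of all).

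The upper part was chosen for low peak numbers in this pair of lists, so its rank among windows describes that choice. Among 575 windows of 5 Mb across the genome that held a mean of at least 20 peaks, the 3 windows of distal 3q above 185 Mb had the 3 lowest ratios of the IGF2BP2 knockout to the control. These were -0.86 from 190 to 195 Mb (52 control peaks and 44 in the knockout), -0.74 from 195 to 200 Mb (64 and 59) and -0.71 from 185 to 190 Mb (49 and 46). A share at least 1.5 times lower than in the control was found in 8 windows, 1.39% of all, of which 3 are these and 5 lie on chromosome 11. A share at least 1.5 times higher was found in 10.6% of windows, and in distal 3q in the window from 175 to 180 Mb alone, with 25 control peaks, 87 in the IGF2BP2 knockout and a ratio of 1.16. In the same 3 windows above 185 Mb the IGF2BP1 knockout had ratios of 0.43, 0.44 and -0.15 from lower to higher coordinates and the IGF2BP3 knockout 0.19, 0.15 and -0.21.

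**Figure D2:**
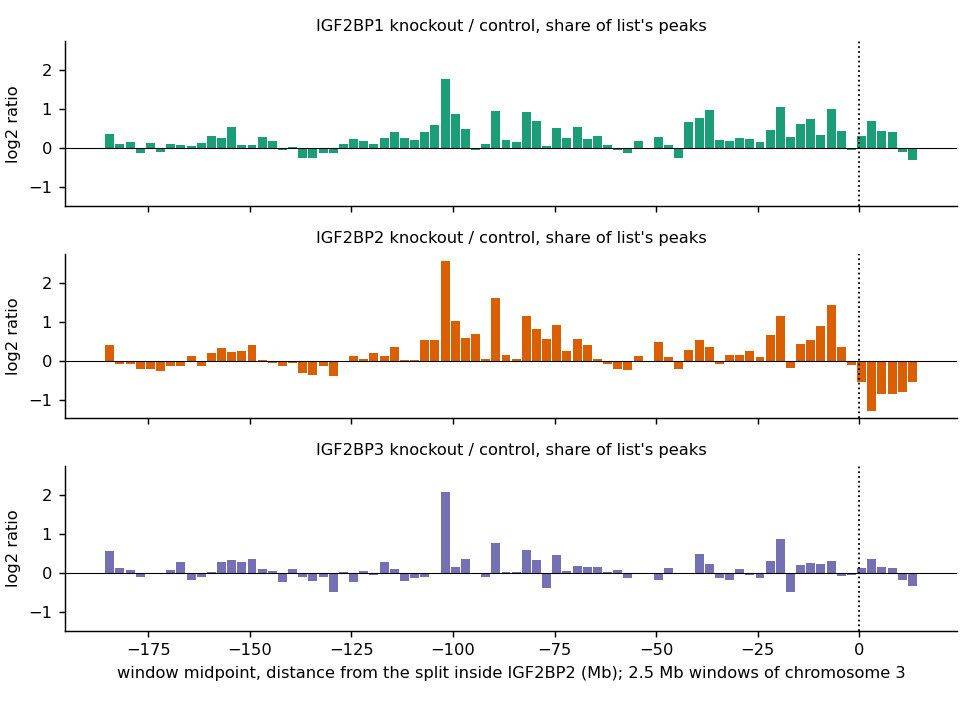
Log2 ratio of a knockout list's share of peaks to that of the control list (y axis) in 2.5 Mb windows along chromosome 3, by distance from the split in Mb (x axis), with 1 panel for each knockout. The bars of the IGF2BP2 knockout right of the dotted line all lie below 0, while those of the IGF2BP1 and IGF2BP3 knockouts lie on both sides of 0.

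At the outer edge of the region, the 2.5 Mb window just inside it (165 to 167.5 Mb) held 9 control peaks and 25, 32 and 19 in the knockouts of IGF2BP1, IGF2BP2 and IGF2BP3. The window just outside (162.5 to 165 Mb) held 12 control peaks and 22, 30 and 17 in those knockouts. The position of 165 Mb thus marks no step in peak number.

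Around the split, peaks inside IGF2BP2 itself changed from surplus to absence in the IGF2BP2 knockout list within the gene. IGF2BP2 spans chr3:185643130-185825042 and is read from the minus strand, so its start site is at the higher coordinate. In the part of the gene below 185.7 Mb the IGF2BP2 knockout list had 4 peaks, of 742 bp, 550 bp, 462 bp and 802 bp, the last ending at 185689487. The control list had none there, the IGF2BP1 knockout list 1 and the IGF2BP3 knockout list 2. From that last peak to the promoter the IGF2BP2 knockout list had no peak, while 5 regions between 185701759 and 185797002 were held by 1 or more of the other lists. An example is the region from 185734021 to 185734580, with peaks of 558 bp in the control, 559 bp without IGF2BP1 and 434 bp without IGF2BP3.

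At the IGF2BP2 start site, the gene targeted in that clone, a peak was present in every list, with widths of 898 bp in the control, 1152 bp without IGF2BP1, 372 bp without IGF2BP2 and 1773 bp without IGF2BP3. The peak of the IGF2BP2 knockout was the narrowest of them and began at 185825001. A second, nearby peak was called separately in the control (636 bp), the IGF2BP1 knockout (754 bp) and the IGF2BP2 knockout (745 bp), whereas the peak of the IGF2BP3 knockout covers both positions. A peak at a promoter does not show whether the protein is made, and the lists hold no measure of the edit. In the 0.5 Mb just below the split the control, IGF2BP1, IGF2BP2 and IGF2BP3 lists held 9, 12, 16 and 10 peaks, and in the 0.5 Mb just above it 10, 13, 5 and 10.

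**Figure D3:**
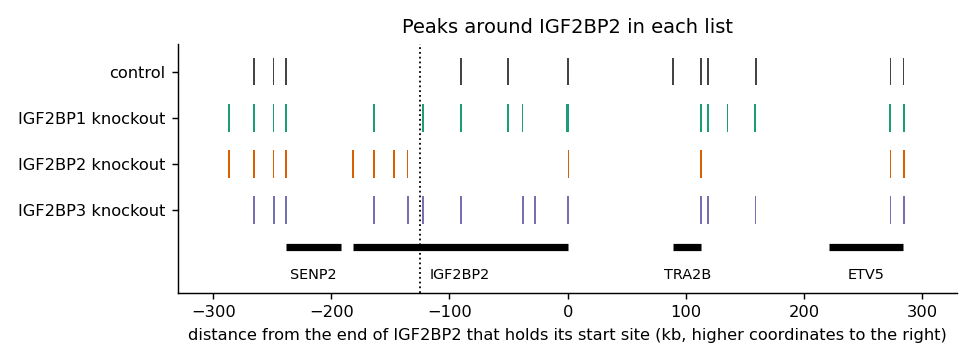
Peaks of the 4 lists (ticks, 1 row per list, drawn at their positions) around IGF2BP2, with gene bodies as black bars, by distance in kb from the end of IGF2BP2 that holds its start site (x axis). The IGF2BP2 knockout has 4 peaks in the body of the gene left of the dotted line, which marks the split, and none between that line and the start site.

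Of 7 listed neighbours of IGF2BP2, 6 had a gene-end peak in every list, and LIPH had none in any. TRA2B, a splicing regulator, had a start-site peak of 926 bp in the control, 1063 bp without IGF2BP1, 1021 bp without IGF2BP2 and 1120 bp without IGF2BP3. Near its other end the control had a further peak of 771 bp (chr3:185913371-185914141) that no knockout list held, the widest upper region of the control alone. ETV5, an ETS-family transcription factor, had a pair of peaks, of 970 and 908 bp in the control, 948 and 949 bp without IGF2BP1, 648 and 701 bp without IGF2BP2 and 795 and 785 bp without IGF2BP3. Both ETV5 peaks were narrowest in the IGF2BP2 knockout. SENP2, a SUMO protease on the other side of the split, had 958, 959, 919 and 1011 bp.

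The difference in number lay mainly away from gene ends. Peaks within 1 kb of a gene end, meaning either its start or its stop coordinate, numbered 81 in the control, 91 without IGF2BP1, 76 without IGF2BP2 and 77 without IGF2BP3 in the upper part. The other upper peaks numbered 74, 148, 55 and 101. In the lower part the gene-end peaks numbered 85, 94, 93 and 84, and the other peaks 110, 248, 298 and 144. The log2 ratio of upper to lower peaks in the IGF2BP2 knockout against the control was -0.22 at gene ends and -1.87 elsewhere. The whole lists also differed more away from gene ends. The control held 15749 peaks at gene ends and 23445 elsewhere, and the IGF2BP2 knockout 17805 and 42457.

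Control peaks with no overlapping peak in the IGF2BP2 knockout list made up 40 of 155 in the upper part (25.8%, 19.6 to 33.2) and 15 of 195 in the lower part (7.69%, 4.72 to 12.3), against 8.8% of all control peaks. Peak numbers in this pair of lists chose the parts, so these percentages, and the counts by width and by list below, are a description. The intervals are not set against each other. Of the upper control peaks, 10 of 81 at gene ends and 30 of 74 elsewhere had no counterpart. Of all control peaks, 4.1% at gene ends and 12% elsewhere had none. The IGF2BP1 knockout list lacked 7.10% of the upper and 8.21% of the lower control peaks (10.1% of all), and the IGF2BP3 knockout list lacked 12.9% and 20.0% (18.5% of all). For the IGF2BP1 knockout the order of the parts was not stable, since with all lists shortened to equal length it lacked 18.1% of the upper and 16.9% of the lower control peaks.

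Narrow peaks were absent more often. The control's peaks were placed by width in 4 bands holding about the same number of peaks over the whole genome. In the narrowest band, up to 557 bp, 24 of 37 upper control peaks (64.9%) had no counterpart in the IGF2BP2 knockout, against 10.7% in the lower part and 21.4% of all. In the next band, up to 771 bp, the values were 24.3%, 12.8% and 8.90%. Among peaks wider than 1078 bp they were 3 of 35 (8.57%), 0 of 43 and 1.19%.

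The converse count was as uneven, and it too depends on the peak numbers that chose the parts. Of the IGF2BP2 knockout's own peaks, 211 of 391 in the lower part (54.0%, 49.0 to 58.8) and 14 of 131 in the upper part (10.7%, 6.47 to 17.1) had no control counterpart, against 40.2% of all its peaks. The IGF2BP1 knockout had 48.5% and 39.7% in the same order (31.2% of all) and the IGF2BP3 knockout 31.6% and 24.2% (27.2% of all).

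Set against the other knockouts, 117 of the 239 upper peaks of the IGF2BP1 knockout (49.0%, with 13.4% of all its peaks) and 60 of the 178 upper peaks of the IGF2BP3 knockout (33.7%, with 12.7% of all) had no counterpart in the IGF2BP2 knockout list. The lower values were 21.6% and 11.8%. In the other direction, 4.58% of the upper and 30.4% of the lower IGF2BP2 knockout peaks had no IGF2BP1 counterpart (25.9% of all), and 7.63% and 48.6% had no IGF2BP3 counterpart (35.9% of all).

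Merged regions were then grouped by which lists held them. Regions held by every list but the IGF2BP2 knockout numbered 21 in the upper part and 5 in the lower part, of 642 in the genome (7.89% of the upper, 1.05% of the lower and 0.897% of all regions). Regions held by the IGF2BP2 knockout alone numbered 2 in the upper and 98 in the lower part (0.752% and 20.5% of their regions, against 15.2% of all). The IGF2BP1 knockout held 65 upper and 56 lower regions alone (24.4% and 11.7%, against 6.03% of all). Regions held by the IGF2BP1 and IGF2BP2 knockouts together and by no other list numbered 2 and 60 in the upper and lower part (0.752% and 12.6%, against 7.91% of all). Those of the IGF2BP1 and IGF2BP3 knockouts together numbered 21 and 9 (7.89% and 1.88%, against 1.33% of all). Of the regions held by all 3 other lists, the IGF2BP2 knockout also held 83.6% (76.2 to 89.0) in the upper part, 96.6% in the lower part and 97.9% genome-wide. Of those held by 2 other lists it held 26.5% (16.2 to 40.3), 81.9% and 81.1%, and of those held by 1 other list 5.75% (2.48 to 12.8), 52.3% and 50.2%.

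**Figure D4:**
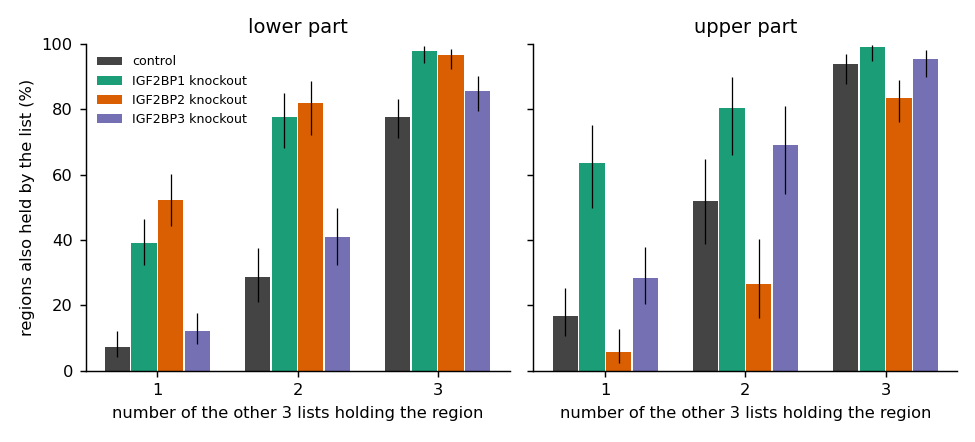
Percentage of merged regions that a list also holds (y axis, bars, with 95% Wilson intervals as thin lines) by how many of the other 3 lists hold the region (x axis), in the lower part (left) and the upper part (right). In the upper part the IGF2BP2 knockout bars are the lowest at each step, at 5.75%, 26.5% and 83.6%, and in the lower part they reach 52.3%, 81.9% and 96.6%.

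The widest regions absent from the IGF2BP2 knockout alone included promoters. In the upper part, EIF4A2 came first, then a region at chr3:195478470-195479339, 35.1 kb from PPP1R2, with 825 bp in the control, 863 bp without IGF2BP1 and 860 bp without IGF2BP3, and then LSG1. In the lower part they lay at DCUN1D1, at YEATS2 and between THPO and CHRD. The widest lower regions of the IGF2BP2 knockout alone were intergenic or within a gene body: 1294 bp at chr3:178058809-178060102, 476 kb from KCNMB2, 981 bp at chr3:177851694-177852674, 650 kb from TBL1XR1, and 927 bp inside WDR49. The pair in the upper part were 442 bp at the locus LOC112268458 and 257 bp over the start site of HES1, a transcriptional repressor downstream of Notch.

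Widths were compared at sites where each of the 4 lists had exactly 1 peak, 138 in the lower and 103 in the upper part of 28672 in all. In the upper part the IGF2BP2 knockout peaks were mostly narrower than the control peaks, with a median log2 width ratio of -0.16 (interval from the ranks of the sites, -0.27 to -0.09), whereas in the lower part they were mostly wider, with 0.09 (0.03 to 0.13). Over the remainder of chromosome 3 the median was 0.00. The IGF2BP1 knockout had medians of 0.21 in the upper and 0.20 in the lower part (0.12 in all) and the IGF2BP3 knockout 0.02 and -0.02 (-0.03 in all). The upper median of the IGF2BP2 knockout was -0.11 over 66 sites at gene ends and -0.27 over 37 sites elsewhere.

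The IGF2BP2 knockout peak was at least 1.25 times narrower than the control peak at 35 of 103 upper sites (34.0%) and 18 of 138 lower sites (13.0%), against 13.7% of all sites. It was at least 1.25 times wider at 3 upper and 27 lower sites, against 11.6% of all. Against the IGF2BP1 knockout it was as much narrower at 63 upper sites, where 26.2% of all sites were. Against the IGF2BP3 knockout this held for 34 upper sites, with 11.3% of all sites. It was the narrowest of the 4 at 67 upper sites (65.0%) and 21 lower sites (15.2%), against 28.2% of all sites. The IGF2BP1 knockout peak was as much narrower than the control peak at 0 upper sites and 1 lower site (3.03% of all) and wider at 31 and 51 (24.4% of all). The IGF2BP3 knockout peak was narrower at 13 upper and 29 lower sites (18.2% of all) and wider at 14 and 15 (10.4% of all).

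**Figure D5:**
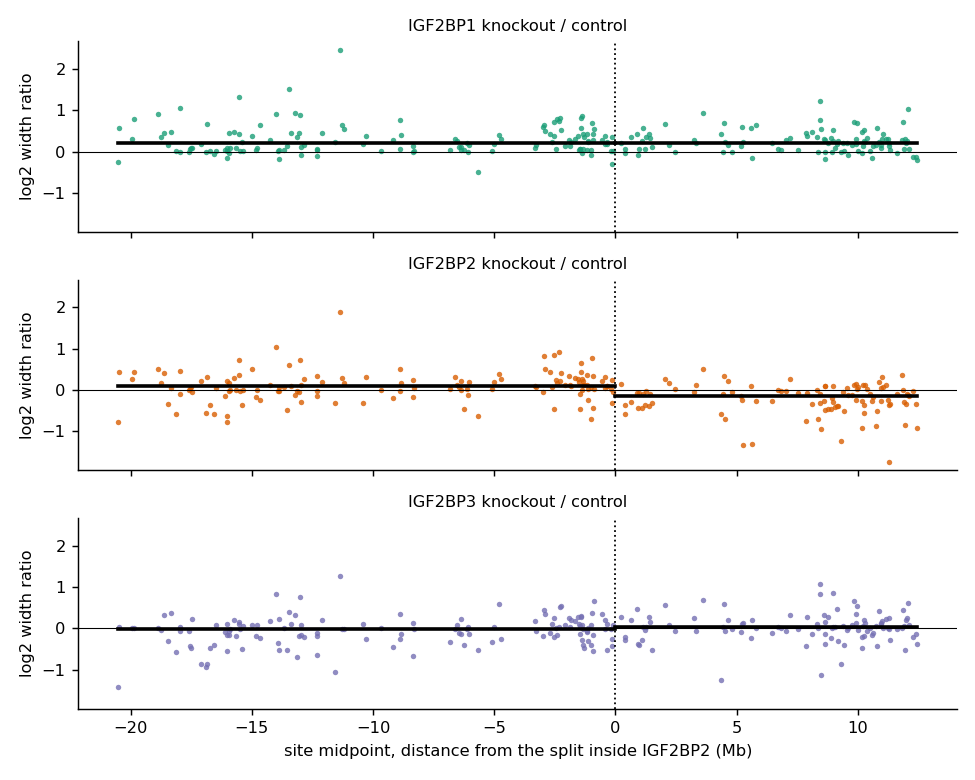
Log2 ratio of peak width in each knockout list to the control list (y axis) at the 138 lower and 103 upper sites with 1 peak in every list (points), by distance from the split in Mb (x axis). Thick lines are medians, which for the IGF2BP2 knockout step from 0.09 below the split to -0.16 above it, and for the other knockouts lie at about the same height on both sides.

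The largest falls in width in the upper part were at PIGZ, which encodes an enzyme of GPI anchor synthesis, near GMNC and at the paired genes UTS2B and CCDC50. The PIGZ site was 1608 bp in the control, 1752 bp without IGF2BP1, 481 bp without IGF2BP2 and 1927 bp without IGF2BP3. The site 109.5 kb from GMNC was 986, 1148, 390 and 1075 bp, and that of UTS2B and CCDC50 was 1950, 1754, 791 and 2226 bp. At these sites the other 3 lists lay close together and the IGF2BP2 knockout apart. The largest rise in the lower part, 30.5 kb from NLGN1, was shared by all knockouts, with 350 bp in the control and 1926, 1301 and 836 bp in the knockouts of IGF2BP1, IGF2BP2 and IGF2BP3.

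Of the protein-coding genes, 97 lie in the lower and 89 in the upper part. Gene-end peaks were found for 71 lower genes in the control and 74, 74 and 72 in the knockouts of IGF2BP1, IGF2BP2 and IGF2BP3, and for 62 upper genes in the control and 64, 58 and 58 in those knockouts. Against the control, the IGF2BP2 knockout lacked the peak at 6 of 62 upper genes (9.68%) and 2 of 71 lower genes, where 2.08% of all such genes lacked it. The upper genes were EIF4A2, BCL6, P3H2, OSTN, LRRC15 and LSG1, and the lower ones YEATS2 and CHRD. It gained a peak at MASP1 and LOC112268458 in the upper and at ZBBX, TNFSF10, KCNMB2, GNB4 and HTR3D in the lower part, with 9.55% of all genes that lacked one gaining it.

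The IGF2BP1 knockout lacked the peak at 1 upper and 1 lower gene (1.12% of all), P3H2 and ACTRT3, and gained 3 and 4 (8.86% of all). The IGF2BP3 knockout lacked 4 upper and 1 lower (2.49% of all), namely BCL6, P3H2, OSTN, RPL35A and SLITRK3, and gained none in the upper and 2 in the lower part (6.83% of all). BCL6, P3H2 and OSTN are therefore not particular to the IGF2BP2 knockout list. The P3H2 start-site peak was in fact present in every list, of 1034, 1020, 961 and 1060 bp, and just missed the 1 kb limit in all knockouts. Counted over the promoter windows of RefSeq in place of gene ends, a choice made after seeing the data, the IGF2BP2 knockout lacked a control peak at 6 of 51 upper and 3 of 65 lower genes (2.26% of all) and gained 2 and 2 (6.88% of all). The upper genes lacking it were then EIF4A2, BCL6, OSTN, UTS2B, LRRC15 and LSG1, with UTS2B in the place of P3H2. Over its whole length UTS2B held 2 peaks in the IGF2BP2 knockout, as in the control, but none of them met a promoter window.

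EIF4A2, an RNA helicase of the translation initiation machinery, had a promoter peak of 1094 bp in the control, 1424 bp without IGF2BP1 and 1527 bp without IGF2BP3 and none in the IGF2BP2 knockout. LSG1, a GTPase needed to finish the large ribosomal subunit, had 802 bp in the control, 1577 bp without IGF2BP1 and 1128 bp without IGF2BP3 and none in the IGF2BP2 knockout. Both lacked any peak over the whole gene in the IGF2BP2 knockout list, and their windows printed above hold no GGGCGG. LRRC15, a membrane protein with leucine-rich repeats, had narrow start-site peaks of 458, 539 and 429 bp in the control, IGF2BP1 and IGF2BP3 lists and none in the IGF2BP2 knockout.

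BCL6 (chr3:187721377-187745468) had a start-site peak of 698 bp in the control and 466 bp without IGF2BP1 and none in the IGF2BP2 or IGF2BP3 knockout. Inside the gene the control had a peak of 517 bp, the IGF2BP1 knockout 851 bp, the IGF2BP3 knockout 1355 and 425 bp, and the IGF2BP2 knockout none. TP63 (chr3:189596746-189897276) had no gene-end peak in any list. In its body the IGF2BP1 knockout had peaks of 1664 and 845 bp and the IGF2BP3 knockout 1 of 692 bp, and neither the control nor the IGF2BP2 knockout had any. TFRC (chr3:196049284-196082090) differed little, with 1125 bp in the control, 1413 bp without IGF2BP1, 1139 bp without IGF2BP2 and 1074 bp without IGF2BP3.

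In the lower part, SOX2 (chr3:181711925-181714436) had 2 peaks at its start, of 739 and 816 bp in the control, 758 and 752 bp without IGF2BP2 and 635 and 974 bp without IGF2BP3, which the IGF2BP1 knockout list joined into 1 of 2097 bp. PIK3CA (chr3:179148126-179240093) had a promoter peak of 1984 bp in the control and 2362, 2171 and 2080 bp in the knockouts of IGF2BP1, IGF2BP2 and IGF2BP3. The peak over TERC (chr3:169764610-169765060) was 761 bp in the control and 1042, 850 and 682 bp in those knockouts. None of these genes lost its peak in any list. MECOM (chr3:169083507-169663712), a gene of 580 kb, held 12 peaks in the control, 23 without IGF2BP1, 17 without IGF2BP2 and 7 without IGF2BP3.

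Other gene-end peaks that came or went in the lower part were mostly narrow or away from the start site. YEATS2, a histone acetylation reader, had a peak near its lower end of 837 bp in the control, 862 bp without IGF2BP1 and 883 bp without IGF2BP3 and none without IGF2BP2. CHRD, which encodes the BMP antagonist chordin, had 559, 1586 and 728 bp in those lists and likewise none without IGF2BP2. KCNMB2, a subunit of a calcium-activated potassium channel, had a start-site peak of 1304, 1032 and 801 bp without IGF2BP1, IGF2BP2 and IGF2BP3 and none in the control, so this gain was shared by all knockouts. GNB4 and ZBBX, whose promoter windows held a peak in every list, gained a peak at the coordinate end of the gene, of 752 and 563 bp without IGF2BP1 and 667 and 542 bp without IGF2BP2. HTR3D, a serotonin receptor subunit, gained 310 bp without IGF2BP2 alone.

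Peak numbers over long genes were counted for every protein-coding gene of at least 100 kb, a limit chosen after values of some of them had been seen. Of 22 such genes in the lower part, 18 held more peaks in the IGF2BP2 knockout than in the control and 1, YEATS2, held fewer, where 66.5% of all 3356 genes held more. Of 17 in the upper part, 3 held more, 8 the same and 6 fewer, where 6.76% of all genes held fewer. The 3 with more were IGF2BP2, from 4 to 6 peaks, and IL1RAP and MB21D2, each from 1 to 2. IGF2BP2 spans the split and was counted as upper by its midpoint, although 4 of its 6 IGF2BP2 knockout peaks lie below the split. Summed over all these long genes, the lower part went from 62 control peaks to 130 in the IGF2BP2 knockout. The upper part went from 40 to 34, with those 4 peaks of IGF2BP2 included. In the IGF2BP1 knockout the sums were 117 and 69 and in the IGF2BP3 knockout 74 and 49.

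Among the longest of them, NAALADL2 in the lower part held 9 peaks in the control and 16, 21 and 6 in the knockouts of IGF2BP1, IGF2BP2 and IGF2BP3. NLGN1, which encodes a synaptic adhesion protein, held 6 and then 16, 15 and 10. In the upper part, LPP held 4 in the control and 8, 2 and 8, and FGF12 held 6 and then 9, 4 and 5.

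By role, the 13 genes listed under RNA binding and translation had a gene-end peak at 13 in the control. The knockouts of IGF2BP1, IGF2BP2 and IGF2BP3 had 13, 11 and 12. EIF4A2 and LSG1 were those without one in the IGF2BP2 knockout, and RPL35A, a ribosomal protein gene, in the IGF2BP3 knockout. The 10 transcription regulators had 8, 8, 7 and 7 in the same order, differing at BCL6 alone. The 13 genes listed under growth and kinase signalling had 12 in each list, and the 10 genes of ubiquitin, SUMO and the proteasome had 8 in each. The lists also hold genes of other roles, such as RFC4 under RNA binding and translation and FETUB under growth and kinase signalling. The 7 genes around TERC had 5, 4, 5 and 5, the IGF2BP1 knockout lacking ACTRT3. The 8 neuronal and hormone genes had 4, 5, 4 and 5, and the 12 membrane and iron uptake genes 4, 6, 4 and 5. Of the 3 innate immune and cytokine genes the lists held 1, 2, 3 and 1. TNFSF10, the death ligand TRAIL, had a start-site peak of 548 bp without IGF2BP2 alone, and MASP1, a protease of the lectin complement pathway, had 1272 bp without IGF2BP1 and 501 bp without IGF2BP2. The presence of a gene-end peak thus differed at few of the listed genes. Genome-wide, the control list marked 13248 of 20056 coding genes in this way. The knockouts of IGF2BP1, IGF2BP2 and IGF2BP3 lacked the peak at 1.12%, 2.08% and 2.49% of those. Of the 6808 remaining genes they gained one at 8.86%, 9.55% and 6.83%. Near-equal counts between lists therefore do not set these role lists apart from other genes. Promoter windows differed at further listed genes. DCUN1D1 lacked a peak there in the IGF2BP2 knockout alone and TBL1XR1 in the IGF2BP1 and IGF2BP2 knockouts. HES1 had a peak there in the IGF2BP2 knockout alone.

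Where a gene-end peak was present in all lists, its width still differed by part. The summed width of the gene-end peaks was smaller in the IGF2BP2 knockout than in the control for 40 of 55 upper genes and 26 of 67 lower genes, against 50.3% of all 12714 such genes, with median log2 ratios of -0.10, 0.04 and -0.00. Neighbouring genes that share a peak, such as PIGZ and LOC124906255, were each counted, so these genes are not all separate observations. UBXN7, a cofactor of the p97 ATPase, had 1584 bp in the control, 1768 bp without IGF2BP1, 868 bp without IGF2BP2 and 1652 bp without IGF2BP3. RNF168, a ubiquitin ligase of the DNA damage response, had 734, 1099, 519 and 547 bp, so the IGF2BP3 knockout was low there too. OPA1, a GTPase of mitochondrial fusion, had 822, 1069, 778 and 1000 bp.

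Among the 78 upper promoter windows with a peak in both the control and the IGF2BP2 knockout, the median GC content was 68.2% and GGGCGG was present in 78.2%. In the 10 upper windows with a peak in the control and none in the IGF2BP2 knockout, the median GC content was 50% and GGGCGG was present in 2, while TATAAA was present in 3 against 3.85% of those 78. Genome-wide, the 556 windows with a control peak and no IGF2BP2 knockout peak had a median GC content of 68% with GGGCGG in 66.5%, and the 16017 with both had 66.7% and 72.9%. GGGCGG was present in 45.0% of all 35116 windows of this length, CCAAT in 34.6%, TATAAA in 11.5%, CCGGAAGT in 4.14%, TGANTCA in 7.71% and the NRF1 motif in 1.24%. The upper windows without a peak in the IGF2BP2 knockout thus had a lower median GC content than the upper windows with one and than all windows without one, with 10 windows as the base.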

How the data were processed

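The authors deposited 4 peak lists, 1 per group, with 3 columns giving chromosome, start and end; they hold positions and no other unit. Per the submitters' processing notes, fastp 0.24.1, BWA 0.7.17, MACS2 3.0.0, bedtools and the build GRCh38 were used; the calling threshold, any shift of read ends and how replicate libraries entered a list are not given in the sources used here. A looser threshold or deeper reads can lengthen a list and change the widths of its peaks, which was not tested here.

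Peaks were assigned to a part by midpoint. Counterparts share at least 1 bp; merged regions join overlapping peaks of the 4 lists. Genes are RefSeq, GRCh38.p14; a gene-end peak lies within 1 kb of either end. Window ratios use a pseudocount of 0.5. Medians carry 95% binomial rank intervals. Python 3.11.15 with pandas 2.3.3 and scipy 1.17.1 was used, and counting was tested on simulated data. No test between groups was made.

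Named were the genes that define the region, genes gaining or losing a gene-end peak in the IGF2BP2 knockout, role-list genes that differed with examples that did not, and the widest regions and most changed sites. The region, the gene lists and the rules were chosen with earlier results of these data known. Alternatives were equal list lengths, merging of peaks closer than 500 bp, 10 Mb on each side, peaks away from gene ends, overlap of 50% and stricter gene ends.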

Additional observations from a re-analysis of the deposited data

How the results depend on the processing

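Of 166 values recomputed under other settings, 115 stayed within their interval or within 1.5 times the count and 51 moved; merging peaks closer than 500 bp moved none. Of 91 orders (lower against upper part, gained against lost, share below the split against 50%), 13 turned. None of these was a lower-against-upper order of the IGF2BP2 knockout. The split was chosen from peak numbers of that list against the control, so its kept count orders are no separate support. With equal list lengths, losses came to exceed gains for IGF2BP1 in the upper and for IGF2BP2 and IGF2BP3 in the lower part, as they did for IGF2BP2 with promoter windows (3 lost). With 10 Mb on each side, the share below the split fell under 50% in every list but the IGF2BP2 knockout, and upper knockout peaks lacked a control counterpart more often than lower ones for IGF2BP1 (45.3%) and IGF2BP3 (29.8%). Control peaks without an IGF2BP1 counterpart became more frequent in the upper part with equal list lengths and away from gene ends (12.2% against 11.8%). The other 2 turns were in the nearly equal IGF2BP1 width medians. With 10 Mb on each side, the percentage of peaks below the split was 47.5 in the control and 45.3, 70 and 46.3 in the IGF2BP1, IGF2BP2 and IGF2BP3 knockouts; lower knockout peaks without a control counterpart were 42.7% for IGF2BP1 and 25.7% for IGF2BP3, lower control peaks without an IGF2BP3 counterpart 13.5%. Genes gained and lost in the lower part became 2 and 0 for IGF2BP1 and 1 and 0 for IGF2BP3; IGF2BP2 gained 3 lower and 1 upper. Away from gene ends, the share below the split in the IGF2BP2 knockout was 84.4%. Knockout peaks without a control counterpart were 61.7% lower and 56.1% upper for IGF2BP1, 66.8% and 18.2% for IGF2BP2, and 47.9% and 39.6% for IGF2BP3. Control peaks without a counterpart were 40.5% upper for IGF2BP2 and 31.8% lower for IGF2BP3, whose lower median width ratio was -0.13.

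With every list shortened to its 39194 widest peaks, knockout peaks without a control counterpart were 39.5% lower and 31.0% upper for IGF2BP1 and 42.9% and 5.05% for IGF2BP2. Control peaks without a counterpart were 16.9% and 18.1% for IGF2BP1, 21.5% and 40.6% for IGF2BP2, and 27.2% and 19.4% for IGF2BP3. Upper genes gained and lost were 1 and 5 for IGF2BP1 and 0 and 11 for IGF2BP2; lower genes lost were 5 for IGF2BP2 and 3 for IGF2BP3. With an overlap of 50%, control peaks without a counterpart were 18.5% lower and 12.9% upper for IGF2BP1 and 12.3% lower for IGF2BP2, and 17.6% of upper IGF2BP2 peaks had no control counterpart. With the gene end required inside a peak, IGF2BP1 lost 2 lower and 0 upper genes, IGF2BP2 gained 2 lower and IGF2BP3 lost 2 upper. With promoter windows, chosen after seeing the data, IGF2BP1 lost 2 lower and 0 upper genes, IGF2BP2 gained 2 lower and IGF2BP3 gained 1 upper; IGF2BP2 then lost 6 of 51 upper genes (2.26% of all). The cause was not tested.

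No paired analysis was possible because each group has 1 list, and for the same reason no setting leaves out a replicate. Read depth and calling threshold are unknown for each list, so an absent peak means only that none was called in that list.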
